A study of Mus musculus with 22 samples.

Results

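The loci of 9 genes of oxygen sensing and blood vessel growth were followed in the open chromatin of mouse adipocytes: Hif1a, Epas1, Egln1, Egln3, Vegfa, Vegfb, Angpt1, Slc2a1 and Ankrd37. The genes were taken as a named set, 9 of the 21911 protein-coding gene symbols of the GENCODE vM21 annotation. A locus was the span of the gene in the mouse build GRCm38 with 20 kb added on each side. All peaks of all 22 libraries that overlap a locus were used. The libraries come from ATAC-seq, in which a transposase cuts accessible DNA, on labelled adipocyte nuclei of epididymal fat.

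All mice, controls included, were male AdipoERCre x NuTRAP on a background that the labels spell C576BL6, in which a tamoxifen-inducible Cre driven by the Adipoq promoter switches on a tag of the nuclear envelope, so only cells in which Cre acted are meant to be pulled down. In the short arm, C (n = 3) ate chow and H (n = 3) a high-fat diet for 12 weeks, both to 18 weeks of age. In HC (n = 3) 8 weeks of chow followed the 12 weeks of high-fat diet, so these mice were 26 weeks old, like the chow-fed CC_s (n = 3). In the long arm, CC_l (n = 2) ate chow and HH (n = 3) the high-fat diet for 25 weeks, both to 31 weeks of age. In HHC (n = 3) 8 weeks of chow followed the 25 weeks of high-fat diet, so these mice were 39 weeks old, like the chow-fed CCC (n = 2). The last 8 weeks before 26 and 39 weeks of age used another chow in the weight loss (WL) groups and in their controls, so the control groups of an arm differ in age and in chow. The titles of the libraries mark the arms as short and long. Duration of diet and any series in which the libraries of an arm were made cannot be told apart.

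The lists held 40528 to 60523 peaks a library, which covered 128 to 299 Mb. The median maximum signal of a library's peaks over the lowest one, called the enrichment ratio here, ran from 6.82 to 8.92 in C, 4.70 to 6.40 in H, 7.30 to 7.42 in CC_s, 4.67 to 7.30 in CC_l, 3.75 to 6.20 in HH and 3.67 to 8.20 in CCC. It was 2.43 in HC 3 and 2.25 in HHC 3, which stood apart from the other HC libraries (6.25 and 6.50) and the other HHC libraries (4.25 and 6.42). For the WL differences over both durations that leaving out both libraries moved by over 1.5 times among those refitted, the value without them is given too. All 12 adipocyte markers, such as Adipoq and Plin1, had a promoter peak in all 22 libraries, but their mean level was 19.41 in HC 3 and 18.85 in HHC 3, against 19.77 to 20.38 in the other libraries. In HC 3 and HHC 3 the mean promoter level of endothelial markers was 15.61 and 15.87, against 14.85 to 15.43 in the others except HH 1, that of macrophage markers 15.41 and 15.35, against 14.75 to 15.38, and that of progenitor and mesothelial markers 15.31 in both, against 14.43 to 15.30. The part of these levels in the WL values was not tested. Of the 12 endothelial markers 4 to 6 had one in 19 libraries, 9 had one in CCC 2 and in HHC 3, and 12 had one in HH 1. Of the 12 macrophage markers 3 to 8 had a promoter peak, and of the 12 progenitor and mesothelial markers 2 to 10.

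Hypoxia-inducible factors are made of an oxygen-controlled alpha subunit, encoded by Hif1a or by Epas1 (HIF-2α), and a constant partner, and they bind a short DNA core in hypoxia response elements. Prolyl hydroxylases, among them the products of Egln1 (PHD2) and Egln3 (PHD3), mark the alpha subunits for destruction when oxygen is present, and both enzyme genes are themselves targets of the factors. Vegfa, the main endothelial growth factor, Vegfb, its relative, Angpt1, the ligand that steadies vessels through the receptor Tek, Slc2a1, the glucose transporter GLUT1, and Ankrd37, a small ankyrin repeat protein gene, act downstream or beside them. Fat that expands in obesity is known for low oxygen and for limits on new vessels.

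RefSeq promoter windows, from 250 bases before a start site to 50 after it, were found for 7 of the 9 genes. The letters ACGTG or GCGTG, the core of the hypoxia response element, were searched on both strands. They are in 43.8% of all 32851 RefSeq promoter windows and in 28.0% of 300-base windows at the maxima of 104640 union regions, the merged peaks of all libraries. The 3 promoter windows below belong to the members whose promoter signal passed an unadjusted p of 0.05 upward in at least 1 comparison. All sequences are from GRCm38, run 5′ to 3′ on the strand of the gene, and capitals mark the core.
Slc2a1 promoter, chr4:119108495-119108794, plus strand: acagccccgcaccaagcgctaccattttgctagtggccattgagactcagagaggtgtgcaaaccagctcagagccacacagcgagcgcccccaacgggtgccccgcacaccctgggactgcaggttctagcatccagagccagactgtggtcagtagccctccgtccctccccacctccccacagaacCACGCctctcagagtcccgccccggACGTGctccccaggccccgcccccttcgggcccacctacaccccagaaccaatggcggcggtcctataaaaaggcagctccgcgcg
Ankrd37 promoter, chr8:45999801-46000100, minus strand: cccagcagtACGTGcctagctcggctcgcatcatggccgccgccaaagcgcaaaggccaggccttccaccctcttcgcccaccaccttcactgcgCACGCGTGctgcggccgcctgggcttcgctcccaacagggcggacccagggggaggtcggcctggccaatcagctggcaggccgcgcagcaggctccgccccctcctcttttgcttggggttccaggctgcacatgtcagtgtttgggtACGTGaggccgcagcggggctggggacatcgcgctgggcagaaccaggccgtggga
Egln3 promoter, chr12:54203825-54204124, minus strand: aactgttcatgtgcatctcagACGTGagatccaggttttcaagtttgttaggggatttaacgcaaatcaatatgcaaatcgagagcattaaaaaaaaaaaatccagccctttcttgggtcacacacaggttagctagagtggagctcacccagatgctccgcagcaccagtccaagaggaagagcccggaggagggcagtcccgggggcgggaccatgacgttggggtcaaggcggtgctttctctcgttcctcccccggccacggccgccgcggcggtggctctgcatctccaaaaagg
The Slc2a1 window holds 2 matches, the Ankrd37 window 4 and the Egln3 window 1. Hif1a has 3, Vegfb 2 and Egln1 2, and of the 2 Vegfa windows the upstream one has 0 and the one at the internal start site has 2.

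The next windows are the 300 bases at the maxima of the regions on which the differences turned. The first shows the Epas1 upstream region, with 2 matches of the hypoxia response core in capitals. The window lies 21.4 kb before the start site, outside the 20 kb flank of the Epas1 locus. It is apart from the 1 kb bins of the locus at -15.5, -14.5, -12.5 and -10.5 kb, picked after their values were seen, which had a peak in 5, 4, 3 and 3 of 6 libraries on high-fat diet and in 2, 2, 1 and 1 of 10 chow libraries. The others show the strongest intronic Angpt1 region and the Angpt1 region that differed most, which hold no match of that core. In the Angpt1 window at the strongest point, capitals mark its 1 match of the AP-1 site TGANTCA, which is in 10.2% of such windows. It also holds 2 matches of the C/EBP site TTGCNNAA, which is in 18.4% of them. The last window holds none of these letters and is in lower case throughout.
Epas1 upstream maximum, chr17:86732140-86732439, plus strand: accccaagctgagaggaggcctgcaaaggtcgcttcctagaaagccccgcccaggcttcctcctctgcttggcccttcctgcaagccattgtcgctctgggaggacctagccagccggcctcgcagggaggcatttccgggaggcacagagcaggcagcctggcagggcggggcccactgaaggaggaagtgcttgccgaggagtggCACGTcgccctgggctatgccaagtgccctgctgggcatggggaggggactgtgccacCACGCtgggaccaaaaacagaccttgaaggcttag
Angpt1 first intronic maximum, chr15:42628669-42628968, minus strand: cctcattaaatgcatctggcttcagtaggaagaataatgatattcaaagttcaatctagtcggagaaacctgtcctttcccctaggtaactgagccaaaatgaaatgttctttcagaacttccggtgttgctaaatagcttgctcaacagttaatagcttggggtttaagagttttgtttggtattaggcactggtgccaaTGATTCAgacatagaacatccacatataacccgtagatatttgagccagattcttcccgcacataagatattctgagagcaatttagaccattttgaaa
Angpt1 second intronic maximum, chr15:42554247-42554546, minus strand: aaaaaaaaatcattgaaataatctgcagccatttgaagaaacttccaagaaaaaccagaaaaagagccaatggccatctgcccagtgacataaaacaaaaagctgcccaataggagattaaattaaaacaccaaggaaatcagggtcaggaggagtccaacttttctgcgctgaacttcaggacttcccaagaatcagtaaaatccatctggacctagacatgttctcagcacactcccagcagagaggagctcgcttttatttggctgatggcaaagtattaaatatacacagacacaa
A match is a run of letters in a window and not a measured binding site.

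Every member locus had a peak in all 22 libraries. The peaks covered a median of 82.7% of the Vegfa locus (55.4 kb), 73.2% of the Vegfb locus (45.2 kb), 36.3% of Egln1 (80.7 kb), 34.3% of Epas1 (120 kb), 20.8% of Hif1a (86.2 kb), 18.6% of Slc2a1 (69.3 kb), 17.7% of Egln3 (64.9 kb), 13.0% of Angpt1 (292 kb) and 7.74% of Ankrd37 (48.8 kb). The median over all 21911 loci was 10.6%, with quartiles of 1.93% and 26.5%. The Vegfa locus lay in a single union region of 77.5 kb, chr17:45989443-46066975, while the Angpt1 locus was broken into 22 regions.

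The strongest point of a locus was not always at the start site of its gene. In all 22 libraries the Hif1a maximum lay within 100 bp of position 73907809 on chromosome 12, 58 bp from the RefSeq start site of Hif1a and 6.4 kb after the first GENCODE start site. It lay at the gene's own start for Ankrd37 (within 2 kb of it in 22 of 22 libraries), Epas1 (21 of 22) and Slc2a1 (18 of 22). It lay inside the gene for Egln3, at a median of 11.7 kb from the start, and for Angpt1, at a median of 48.1 kb. The median position of the Egln1 maximum was 63 bp from the start site of Sprtn, and that of the Vegfb maximum was 257 bp from the start site of Fkbp2, so these locus values include neighbouring genes. The Vegfb locus holds 7 other protein-coding genes, Egln1 3 (Gnpat, Exoc8 and Sprtn), Hif1a 2, Ankrd37 2 and the other 5 members none.

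The peak lists hold signal without a common scale, so each library was rank-mapped: its 16741 strongest loci by summed total signal took the mean sorted log2 value at their rank over the 22 libraries, and the rest sat at a floor of 14.06. All levels and differences below are on this log2 scale, and no member locus was at the floor in any library. Differences were tested with limma over all loci and adjusted by the Benjamini-Hochberg method over all of them. The 4 pairs were fitted on their own libraries, and contrasts over both durations on all 22 libraries.

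**Figure D1:**
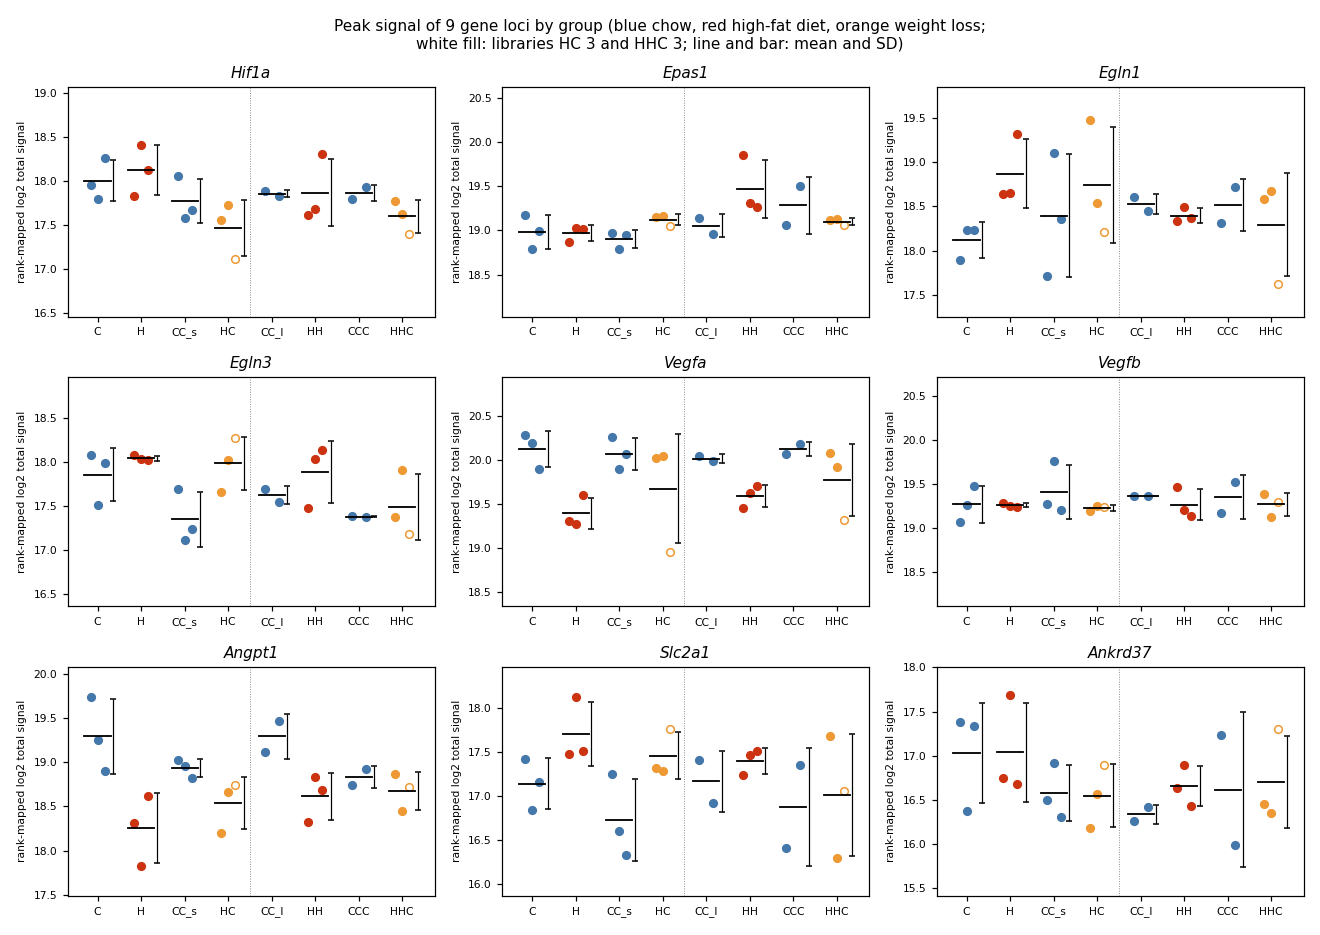
Rank-mapped log2 total signal (y axis) of the 9 loci in the 8 groups (x axis), 1 point a library, with the mean as a line and the SD as a bar; chow is blue, high-fat diet red, WL orange, HC 3 and HHC 3 are white, and a dotted line parts the arms. All Vegfa values of H and HH (19.27 to 19.70) lie below all chow values (19.89 to 20.28).

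In obesity, 3 of 9 members differed between H and C at an unadjusted p under 0.05, Egln1 upward and Vegfa and Angpt1 downward, in a comparison where 31.3% of all loci did. Only Vegfa passed the adjusted threshold there, as did 11% of all loci. Between HH and CC_l, 2 members passed the unadjusted threshold, Vegfa and Angpt1, both downward, against 12.1% of all loci. None of them passed the adjusted one, which 0.00579% of all loci did. Over both durations the same 2 genes passed the unadjusted threshold (22.9% of all loci) and Angpt1 passed the adjusted one (8.27%). The median difference of the 9 members was 0.01 for H minus C, 0.01 for HH minus CC_l and 0.16 over both durations, and that of all loci was -0.01, -0.03 and -0.01. For H minus C and over both durations the share of members called, 3 of 9 and 2 of 9, was near that of all loci.

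After WL, Egln3 was the single member past the unadjusted threshold between HC and CC_s (8.98% of all loci), with a higher level in HC. No member passed it between HHC and CCC (4.05% of all loci) or over both durations in limma (21.6% of all loci, and 2.2% at the adjusted threshold). The median difference of the members was -0.03, -0.15 and 0.02, and that of all loci -0.02, -0.04 and -0.01. The change from the obesity difference to the WL difference passed the unadjusted threshold for Angpt1 alone of the 9, against 10.2% of all loci.

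**Figure D2:**
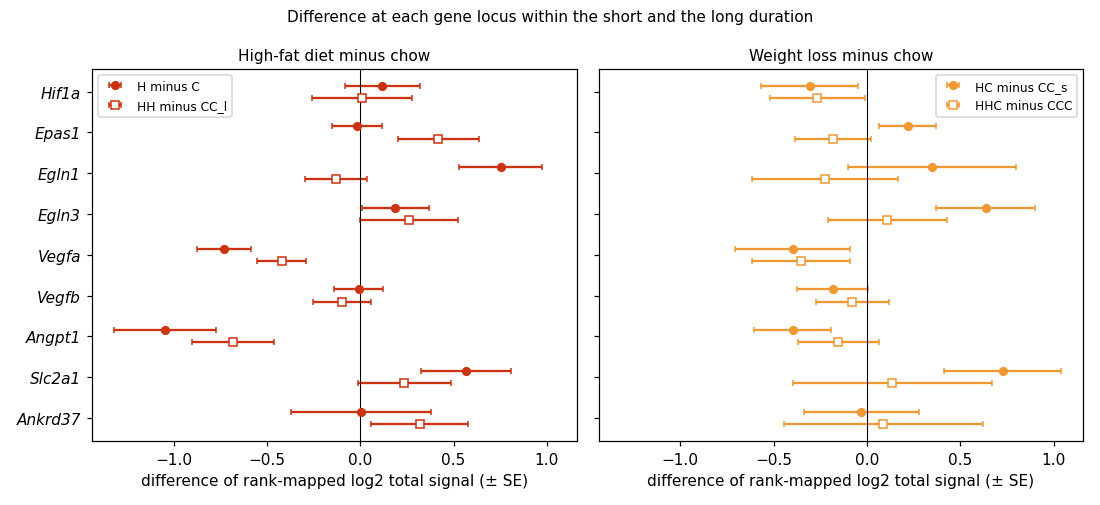
Difference of rank-mapped log2 total signal (x axis) with its SE at each member locus (y axis), for high-fat diet minus chow on the left and WL minus chow on the right; filled circles are the short arm and open squares the long arm. Vegfa, Angpt1 and Vegfb lie below 0 in all 4 pairs, Vegfb by less than its SE, and Egln3 and Slc2a1 lie above 0 in all 4. Egln1 is above 0 in H minus C and below it in HH minus CC_l.

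Peak signal over Vegfa was lower in obesity and was near the chow level in most WL libraries. At its locus the C libraries were at 20.28, 20.18 and 19.89 and the H libraries at 19.30, 19.27 and 19.59. The CC_l libraries were at 20.05 and 19.98 and the HH libraries at 19.46, 19.62 and 19.70. In both arms every library on high-fat diet was below every chow library of its pair. In such bulk libraries, fewer nuclei with an open site and less cutting per nucleus cannot be told apart. The difference was -0.73 ± 0.14 (SE) for H minus C (adjusted p = 0.0281), a level 0.603 times that of C. It was -0.42 ± 0.13 (SE) for HH minus CC_l (adjusted p = 0.295 in limma) and -0.58 ± 0.18 (SE) over both durations (adjusted p = 0.0587). The H minus C call was lost with the gene span alone, the covered length, no filter, the fit of all libraries, the replicate block and the enrichment ratio as a covariate, and when C 1, H 1, C 2 or H 2 was left out.

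The union region over Vegfa, which runs from 34.6 kb before the start site to 42.9 kb after it, gave a closer reading. Its 10 chow libraries ran from 20.08 to 20.36 and its 6 libraries on high-fat diet from 19.46 to 19.65, with no overlap. The difference over both durations was -0.66 ± 0.15 (SE) with an adjusted p of 0.00921 in limma. This region was among 9.07% of all regions with such a p. The call was kept with the enrichment ratio as a covariate (-0.53, adjusted p = 0.00546) and lost without CC_l 1 (-0.65, adjusted p = 0.0764).

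After WL the Vegfa region divided the libraries. HC was at 20.14, 20.02 and 19.19 and HHC at 20.11, 20.09 and 19.47, in replicate order, while CC_s was at 20.18, 20.25 and 20.19 and CCC at 20.14 and 20.13. The low value of each group is that of HC 3 or HHC 3, the libraries of lowest enrichment ratio, and the part of the ratio in it was not tested. The difference over both durations was -0.33 ± 0.15 (SE) (adjusted p = 0.266 in limma) and -0.08 without these libraries. The change from the obesity difference was 0.33 ± 0.21 (SE) (adjusted p = 0.596 in limma) with all libraries and 0.58 (adjusted p = 0.0175) without them. Leaving them out was chosen after seeing the data. It takes away the lowest value of each WL group, so the change had to grow, and no conclusion is drawn from that p.

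Within the locus, the bins of 1 kb at 29.5, 30.5 and 31.5 kb after the Vegfa start site had a peak in 8, 8 and 7 of 10 chow libraries and in 0 of 6 on high-fat diet. After WL they had one in 3, 1 and 1 of 6. These bins, which lie beyond the 3′ end of the gene, were picked after their values were seen and were not tested. Of the 56 bins of the locus, 7 were covered in a share of chow libraries at least 50 percentage points above that of the high-fat diet, and 0 the other way. Peak presence in a bin is not scaled between libraries. Such tallies, here and at the loci below, were not made over all loci.

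**Figure D3:**
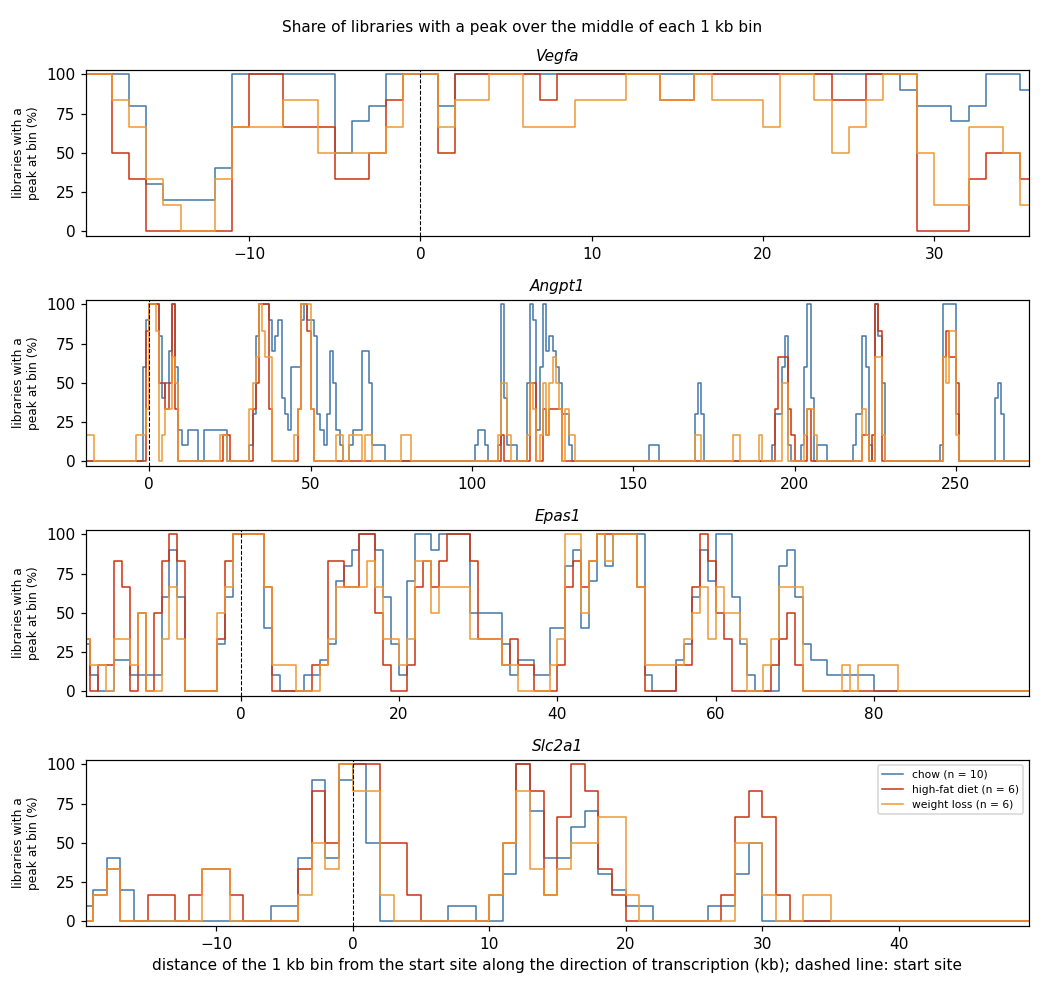
Share of libraries with a peak over the middle of each 1 kb bin (y axis, percent) against the distance from the start site in the direction of transcription (x axis, kb), for chow (n = 10), high-fat diet (n = 6) and WL (n = 6). The Angpt1 panel shows bins open in most chow libraries and in few or none of the others, and the Slc2a1 panel shows bins open more often on the high-fat diet.

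Angpt1 had the largest obesity difference of the 9 loci over both durations, with a lower signal on the high-fat diet. The C libraries were at 19.74, 19.25 and 18.90 and the H libraries at 18.31, 17.83 and 18.62. The CC_l libraries were at 19.12 and 19.48 and the HH libraries at 18.32, 18.83 and 18.69. The groups of each pair did not overlap. The difference was -1.05 ± 0.27 (SE) for H minus C (adjusted p = 0.0544 in limma), -0.68 ± 0.22 (SE) for HH minus CC_l (adjusted p = 0.303) and -0.86 ± 0.17 (SE) over both durations (adjusted p = 0.0062), or 0.549 times the chow level. The last call was kept with the enrichment ratio as a covariate (-0.89, adjusted p = 0.00634) and lost with the maximum signal of the locus (-0.21, adjusted p = 0.64) and without CC_l 2 (adjusted p = 0.05005). Mean promoter levels of macrophage markers were 15.04 to 15.38 in C, 14.75 to 14.95 in H, 14.87 to 14.97 in CC_l and 14.85 to 14.94 in HH. Those of progenitor and mesothelial markers were 14.43 to 14.91 in C, 14.50 to 14.58 in H, 14.75 to 14.78 in CC_l and 14.54 to 15.07 in HH. The part of DNA of other cells in the Angpt1 values was not tested.

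After WL, the Angpt1 locus was at 18.20, 18.67 and 18.74 in HC against 19.03, 18.96 and 18.82 in CC_s. It was at 18.87, 18.45 and 18.72 in HHC against 18.74 and 18.92 in CCC. All 3 HC libraries were below all 3 CC_s libraries, and HHC overlapped CCC. The difference over both durations was -0.28 ± 0.17 (SE) (adjusted p = 0.34 in limma), and its change from the obesity difference was 0.59 ± 0.25 (SE) (adjusted p = 0.432). The chow level itself was lower in CCC than in CC_l, by 0.46 (adjusted p = 0.511).

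The covered share of the locus was read as well. Peaks covered 23.3% ± 0.99 (SD, n = 3) of the Angpt1 locus in C and 9.59% ± 2.4 (SD, n = 3) in H. They covered 21.2% ± 10.1 in CC_s and 9.67% ± 3.24 in HC, 18.4% ± 7.37 in CC_l and 9.46% ± 3.66 in HH, and 13.7% ± 3.63 in CCC and 10.8% ± 3.25 in HHC. The chow mean was the higher one in all 4 pairs, as it also was at the Vegfb locus. Covered share is not scaled between libraries, which covered 204 to 258 Mb in C and 197 to 210 Mb in H. The range was 181 to 299 Mb in CC_s, 128 to 235 in HC, 162 to 205 in CC_l and 132 to 216 in HH. It was 177 to 219 Mb in CCC and 140 to 241 Mb in HHC. The part of total coverage in the Angpt1 share was not tested.

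Of the 15 Angpt1 regions tested over both durations, 5 had an adjusted p under 0.05 in limma, all lower in obesity, in a contrast where 9.07% of all regions did. A region with peaks in chow libraries alone had to come out lower. The region that differed most lies in an intron at chr15:42545384-42560163, 117 to 132 kb from the start site. It was at 16.94, 16.34 and 15.24 in C and 14.46, 14.01 and 14.96 in H. It was at 15.96 and 16.42 in CC_l and 14.01, 15.53 and 14.38 in HH. No library on high-fat diet reached the chow libraries of its pair, and the values of 14.01 are the floor, so the fitted difference depends on it. The difference was -1.62 ± 0.42 (SE) over both durations (adjusted p = 0.022 in limma). Leaving out C 1, C 2, H 2, CC_l 1 or CC_l 2 raised that p to between 0.0508 and 0.150.

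In WL the same intronic region was at 15.05, 15.56 and 14.01 in HC and 16.14, 15.96 and 14.01 in HHC, and at 16.19, 16.54 and 16.17 in CC_s and 16.08 and 15.67 in CCC. HC was below CC_s in all 3 libraries, while HHC 1 and HHC 2 lay at the CCC level and HHC 3 at the floor. The difference was -1.43 ± 0.43 (SE) for HC minus CC_s (adjusted p = 0.251 in limma). It was -0.96 ± 0.42 (SE) over both durations (adjusted p = 0.26) and -0.41 without HC 3 and HHC 3.

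The strongest intronic region, chr15:42623102-42645593, 31 to 54 kb from the start site, differed less but with little spread. It was at 17.62, 17.57 and 17.52 in C, 17.00, 16.54 and 17.05 in H, 17.21, 17.38 and 17.30 in CC_s and 16.96, 16.99 and 16.72 in HC. In the long arm it was at 17.07 and 17.49 in CC_l, 16.91, 17.03 and 17.07 in HH, 17.42 and 17.29 in CCC and 17.16, 16.89 and 16.93 in HHC. CC_l 1 lay at the HH level, H was below C without overlap, and all 6 WL libraries were below all 5 chow libraries of their age. The difference was -0.49 ± 0.11 (SE) in obesity (adjusted p = 0.0119 in limma) and -0.38 ± 0.11 (SE) after WL (adjusted p = 0.0917), or -0.33 without HC 3 and HHC 3. The obesity call was lost without CC_l 2 (adjusted p = 0.0793). The region over the Angpt1 start site had -0.49 ± 0.15 (SE) (adjusted p = 0.0535) and -0.28 ± 0.15 (SE) (adjusted p = 0.376).

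Inside that intronic region, the bin at 40.5 kb from the start site had a peak in 9 of 10 chow libraries, in 0 of 6 on high-fat diet and in 0 of 6 after WL. The bins at 38.5 and 39.5 kb had a peak in 7 and 8 of 10 chow libraries and in 0 of the other 12. Over the 293 bins of the locus, 26 were covered in chow by at least 50 percentage points more of the libraries than in obesity and 0 in the other direction. These bins were picked after their values were seen. Peak presence in a bin is not scaled between libraries, and the tally has no share over all loci beside it.

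**Figure D4:**
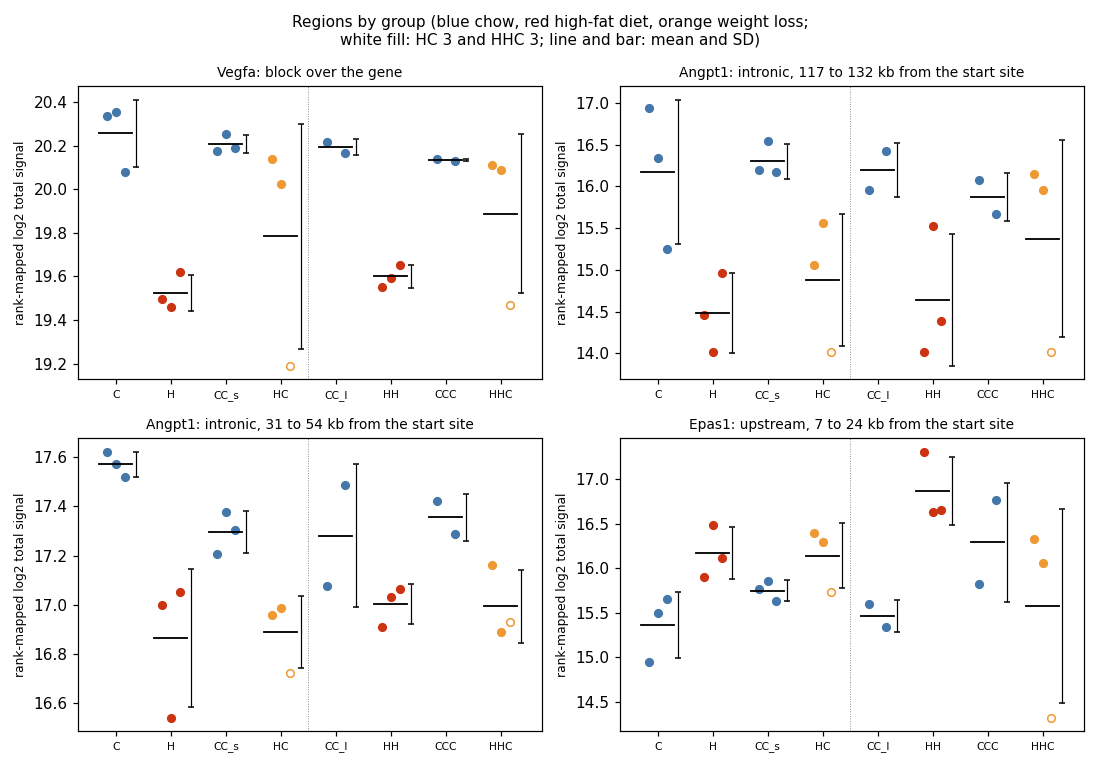
Rank-mapped log2 total signal (y axis) of 4 regions in the 8 groups (x axis), 1 point a library, with the mean as a line and the SD as a bar; HC 3 and HHC 3 are white. The Vegfa region separates 10 chow libraries from 6 on high-fat diet, the Angpt1 regions are low on high-fat diet, and the Epas1 region is high in HH.

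At Epas1, the gene of HIF-2α, a region upstream of the start site was higher in obesity, while the region over the start site had opposite signs in the arms. The locus level was 18.99 ± 0.19 in C and 18.97 ± 0.09 in H (SD, n = 3 each), and 19.06 ± 0.13 in CC_l (SD, n = 2) and 19.47 ± 0.33 in HH (SD, n = 3). The locus difference was 0.20 ± 0.12 (SE) over both durations (adjusted p = 0.324 in limma), and the region over the start site had 0.02 ± 0.11 (SE). That region had -0.18 ± 0.12 (SE) for H minus C and 0.23 ± 0.23 (SE) for HH minus CC_l.

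The upstream region, chr17:86729671-86747099, 6.6 to 24 kb before the start site, was at 14.95, 15.49 and 15.65 in C and 15.90, 16.49 and 16.12 in H. It was at 15.60 and 15.34 in CC_l and 17.31, 16.64 and 16.65 in HH. All libraries on high-fat diet were above all chow libraries of their pair. The difference was 0.80 ± 0.26 (SE) for H minus C (adjusted p = 0.0677 in limma), 1.40 ± 0.28 (SE) for HH minus CC_l (adjusted p = 0.17) and 1.10 ± 0.31 (SE) over both durations (adjusted p = 0.0318).

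Endothelial markers were read beside this region. Of the 12 endothelial marker loci, 2 were higher and 0 lower in obesity over both durations at an unadjusted p under 0.05, with 1 at the adjusted threshold, where 22.9% and 8.27% of all loci passed. The list's median difference was 0.47, against -0.0076 over all loci. Cdh5, an adhesion protein of endothelial junctions, passed the adjusted threshold, with 2.84 ± 0.61 (SE) (adjusted p = 0.00935 in limma). Its mean was 14.06, the floor, in C and CC_l, 16.95 in H and 16.86 in HH. In obesity it could therefore only come out higher, and the fitted difference depends on the floor. Tal1, a transcription factor of endothelial and blood cells, had 1.38 ± 0.48 (SE) (adjusted p = 0.0844). Its mean was 14.34 in C and 14.22 in CC_l, near the floor, so this difference depends on the floor too. HH 1, with 12 of 12 endothelial marker promoters in peaks, had the highest value of the Epas1 region, 17.31, and CCC 2, with 9 of 12, had the highest value of any chow library, 16.77. HHC 3, also with 9 of 12, had the lowest value, 14.33, and an enrichment ratio of 2.25. The mean endothelial promoter level was 14.85 to 14.98 in C, 15.05 to 15.32 in H, 14.90 to 15.04 in CC_l and 15.13 to 17.00 in HH, and the part of endothelial DNA in the Epas1 values was not tested. Without HH 1 the difference was 0.99 (adjusted p = 0.0624), and leaving out C 1, C 2, H 2, CC_l 1 or CC_l 2 also took the adjusted p past 0.05, to at most 0.183.

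After WL the Epas1 upstream region was at 16.40, 16.30 and 15.73 in HC against 15.76, 15.86 and 15.63 in CC_s, and at 16.33, 16.06 and 14.33 in HHC against 15.82 and 16.77 in CCC. The groups overlapped in both arms, and the difference over both durations was -0.16 ± 0.31 (SE), or 0.25 without HC 3 and HHC 3. The change from the obesity difference was -1.26 ± 0.43 (SE) (adjusted p = 0.275 in limma). At the other end of the gene, a region over its last exons, chosen after its values were seen, 66 to 83 kb from the start site, had a difference of -0.79 ± 0.26 (SE) in obesity (adjusted p = 0.0706) and -0.89 ± 0.20 (SE) for H minus C (adjusted p = 0.0243). Its mean level was 14.57, near the region floor of 14.01, and 17 of the 22 libraries had a peak there.

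Hif1a, the other alpha subunit gene, showed no difference past the unadjusted threshold at its locus. It was at 18.00 ± 0.23 in C, 18.12 ± 0.29 in H, 17.77 ± 0.25 in CC_s and 17.47 ± 0.32 in HC (SD, n = 3 each). In the long arm it was at 17.86 ± 0.04 in CC_l, 17.87 ± 0.38 in HH, 17.86 ± 0.10 in CCC and 17.60 ± 0.19 in HHC (SD, n = 2, 3, 2 and 3). The difference was 0.06 ± 0.17 (SE) in obesity and -0.29 ± 0.17 (SE) after WL (adjusted p = 0.307 in limma), and the latter was -0.15 without HC 3 and HHC 3. Its start site region had -0.16 ± 0.14 (SE) and -0.29 ± 0.14 (SE).

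No difference at the loci of the prolyl hydroxylase genes passed the adjusted threshold, and the genes were not tested against each other. Egln1 (PHD2) was at 17.89, 18.23 and 18.24 in C and 18.64, 18.65 and 19.32 in H, without overlap, with a difference of 0.75 ± 0.22 (SE) (adjusted p = 0.0711 in limma). It was at 18.60 and 18.45 in CC_l and 18.33, 18.49 and 18.36 in HH, where the difference was -0.13 ± 0.17 (SE). The difference between the durations was -0.88 ± 0.54 (SE) (adjusted p = 1). The strongest point of the locus lies at Sprtn, and the region over the Egln1 start site itself had -0.74 ± 0.30 (SE) for H minus C (adjusted p = 0.121), the opposite sign of the locus.

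Egln3 (PHD3) passed the unadjusted threshold alone, after the short diet and WL. CC_s was at 17.70, 17.11 and 17.24 and HC at 17.66, 18.02 and 18.27, and CCC at 17.38 and 17.37 and HHC at 17.37, 17.91 and 17.19. HC overlapped CC_s in 1 value, and HHC spread around CCC. The difference was 0.64 ± 0.27 (SE) for HC minus CC_s (adjusted p = 0.555 in limma) and 0.37 ± 0.18 (SE) over both durations (adjusted p = 0.231). The HC minus CC_s call was lost without flank, with 50 kb of flank, the strongest 40000 peaks, the maximum signal, covered length, each library's share of its total signal, the replicate block and the enrichment ratio as a covariate, and when CC_s 2, CC_s 3, HC 2 or HC 3 was left out. In those repeats the difference ran from 0.0895 with the maximum signal to 0.77 with covered length. In obesity the difference was 0.22 ± 0.18 (SE). At its promoter the WL difference was 0.65 ± 0.30 (SE) (adjusted p = 0.34), and 0.42 without HC 3 and HHC 3.

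Slc2a1 and Ankrd37, targets of the factors, had higher estimates at the promoter in obesity. The Slc2a1 promoter, whose sequence stands above, was at 15.89, 15.78 and 15.84 in C and 16.36, 16.60 and 16.76 in H, without overlap. It was at 15.93 and 15.92 in CC_l and 15.96, 16.09 and 16.52 in HH, with the HH libraries above CC_l by a narrow margin. The difference was 0.73 ± 0.16 (SE) for H minus C (adjusted p = 0.0736 in limma) and 0.50 ± 0.22 (SE) over both durations (adjusted p = 0.296). After WL it was 0.03 ± 0.22 (SE), or 0.05 without HC 3 and HHC 3. At the whole Slc2a1 locus HC was at 17.31, 17.28 and 17.76 and CC_s at 17.24, 16.60 and 16.33, a difference of 0.73 ± 0.31 (SE) (adjusted p = 0.559).

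The Ankrd37 promoter, with 4 response cores, was at 16.39, 16.20 and 16.14 in C and 16.89, 16.75 and 16.47 in H. Every H library was above every C library, with a difference of 0.46 ± 0.17 (SE) (adjusted p = 0.204 in limma). Over both durations it was 0.39 ± 0.19 (SE) in obesity and 0.37 ± 0.19 (SE) after WL (adjusted p = 0.368), and the latter was 0.13 without HC 3 and HHC 3. The 2 Slc2a1 bins at 2.5 and 3.5 kb from the start site had a peak in 3 of 6 libraries on high-fat diet each and in 0 of 10 on chow, and the bin at 30.5 kb in 4 of 6 and 0 of 10. After WL they had one in 1, 0 and 1 of 6. These bins were picked after their values were seen, and of the 70 bins of the locus 4 were covered on the high-fat diet in at least 50 percentage points more of the libraries than on chow and 0 the other way.

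Vegfb, the relative of Vegfa that lies among 7 other genes, ran from 19.06 to 19.76 in the chow libraries at its locus, from 19.13 to 19.46 on the high-fat diet and from 19.12 to 19.39 after WL. The mean was 19.27 ± 0.21 in C, 19.26 ± 0.03 in H, 19.41 ± 0.31 in CC_s and 19.23 ± 0.03 in HC (SD, n = 3 each). The 3 ranges overlapped. The difference was -0.05 ± 0.11 (SE) in obesity and -0.13 ± 0.11 (SE) after WL. At its promoter the WL difference was -1.89 ± 0.77 (SE) (adjusted p = 0.281 in limma). HC 3 and HHC 3 had no peak there and sat at the promoter floor of 14.30. Without them the WL difference was -0.52 at the Vegfb promoter and -0.25 at the Vegfa promoter, against -0.99 ± 0.45 (SE) at the latter with all libraries.

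At promoters, within 2000 bp of any start site of a gene, 2 of 9 members passed an unadjusted p of 0.05 for H minus C (21.2% of all promoters), both upward: Slc2a1 and Ankrd37. None did for HH minus CC_l (7.41%), HC minus CC_s (6.06%) or HHC minus CCC (4.25%). Over both durations 2 did in obesity (14.9%), Slc2a1 upward and Angpt1 downward, with -0.63 ± 0.25 (SE). After WL 3 did (14.6%), Egln3 upward and Vegfa and Vegfb downward. No member promoter had an adjusted p under 0.05 in limma in any of these 6 comparisons. Without HC 3 and HHC 3 the unadjusted counts over both durations were 4 in obesity and 1 after WL. With promoters of 1000 bp on each side they were 1 and 1.

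A rule of an unadjusted p under 0.01 with a difference above 1 called few of the 56 union regions of the 9 loci. It called 1 of 32 tested for H minus C, in Angpt1, against 8.52% of all regions. It called 1 of 27 for HC minus CC_s, in Angpt1 (2.54%), and 1 of 27 for HH minus CC_l, upstream of Epas1 (2.68%). It called 0 of 28 for HHC minus CCC in limma (0.706%). Over both durations it called 2 of 40 in obesity (3.46%), those of Angpt1 and Epas1, and 0 of 40 after WL (1.94%). At an adjusted p under 0.05, 7 of 40 differed in obesity, 5 of Angpt1 and 1 each of Vegfa and Epas1, where 9.07% of all regions did, and 0 of 40 after WL, where 2.25% of all regions did.

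The control groups gave the background of age and chow. No member locus passed an unadjusted p of 0.05 in limma between CC_s and C (5.45% of all loci) or between CCC and CC_l (9.65%), and none had an adjusted p under 0.05. With the replicate number as a block, since same-numbered C and CC_s libraries deviated together, 1 member passed the unadjusted threshold, Egln3 (adjusted p = 0.336). The member differences ran from -0.51 (Egln3) to 0.27 in the first and from -0.46 (Angpt1) to 0.28 in the second.

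Other genes of the pathway were read from lists, in contrasts where 22.9% of all loci in obesity and 21.6% after WL had an unadjusted p under 0.05, and 8.27% and 2.2% an adjusted one. Of 14 HIF pathway components, 2 loci were higher and 0 lower in obesity over both durations at an unadjusted p under 0.05, and 1, Arnt2, passed the adjusted threshold. Arnt2, a partner subunit mostly known from neurons, had 1.51 ± 0.45 (SE) (adjusted p = 0.0486 in limma). After WL 1 was higher and 3 lower, with 0 at the adjusted threshold in limma. The higher one was Arnt2, with 1.14 ± 0.45 (SE) (adjusted p = 0.173). Hif1an, the asparagine hydroxylase of the factors, had -0.68 ± 0.24 (SE) and Crebbp, their coactivator, -0.81 ± 0.29 (SE). The list's median difference was -0.03 in obesity and -0.02 after WL, near the -0.01 of all loci in both.

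Of 32 hypoxia-induced genes, 5 were higher and 2 lower in obesity, with 3 higher and 1 lower at the adjusted threshold, and 3 were higher and 2 lower after WL, with 2 and 0. The glycolytic regulator Pfkfb3 had 0.57 ± 0.15 (SE) in obesity (adjusted p = 0.0289 in limma) and 0.63 ± 0.15 (SE) after WL (adjusted p = 0.0415). Mxi1, a Myc antagonist, had 0.62 ± 0.09 (SE) in obesity (adjusted p = 0.000971). Errfi1, an inhibitor of EGF receptor signalling, fell by 0.99 ± 0.20 (SE) (adjusted p = 0.00548). Gpi1, a glycolytic enzyme, had 0.63 ± 0.15 (SE) after WL (adjusted p = 0.0345). The median of the list was -0.01 in obesity and 0.00 after WL.

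Of 20 angiogenic ligands and receptors, 3 were higher and 3 lower in obesity, with 1 and 2 at the adjusted threshold, and 5 were higher and 2 lower after WL, with 0 and 1. Apln, a peptide ligand of endothelial cells, was lower both in obesity (-1.86 ± 0.36 (SE), adjusted p = 0.00475 in limma) and after WL (-1.75 ± 0.36 (SE), adjusted p = 0.02). Its mean was 14.47 in H and 14.20 in HC, near the locus floor of 14.06, so both fitted differences depend on the floor. Of the fibroblast growth factors in the list, Fgf1 had 0.74 ± 0.17 (SE) (adjusted p = 0.015) and Fgf2 -0.54 ± 0.13 (SE) (adjusted p = 0.0174) in obesity. Pgf, a relative of Vegfa, had -1.03 ± 0.31 (SE) after WL (adjusted p = 0.086), and Nrp2, a coreceptor of the Vegf family, 0.58 ± 0.19 (SE) (adjusted p = 0.114). The median of the list was 0.18 in obesity and 0.22 after WL.

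Vegfa and Angpt1 followed each other most closely of the 36 pairs of members over the 22 libraries (Pearson's r = 0.573), and Vegfb and Egln3 had the lowest r (-0.512). The loci most like Vegfa among the 13688 to 13701 compared for each member were Podn (r = 0.930), Uqcrfs1 (r = 0.917) and E030025P04Rik (r = 0.897). Those most like Angpt1 were Poli (r = 0.838), Cp (r = 0.827) and Dgcr6 (r = 0.802), and most like Epas1 were Shb (r = 0.838), Gm42906 (r = 0.836) and Cd200 (r = 0.793). The highest r was 0.825 for Hif1a (Cyp2b10), 0.854 for Egln3 (Msh4), 0.802 for Slc2a1 (Xpo7), 0.800 for Vegfb (Ndufa7), 0.720 for Egln1 (Phactr4) and 0.683 for Ankrd37 (Nr6a1). These are descriptions over libraries that share groups, arms and enrichment.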

How the data were processed

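ATAC-seq peak lists of 22 libraries of labelled epididymal adipocyte nuclei were used. The authors trimmed reads with Trim Galore 0.6.6, aligned them to mm10 (GRCm38) with Bowtie2 2.4.4, processed them with SAMtools 1.13 and bedtools 2.30 and called peaks in each library with SEACR 1.3 in stringent mode, and the deposited values are each peak's total and maximum signal, with no scaling between libraries. Mitochondrial peaks (1 a library) were left out. Depth is unknown, because no read counts were used, and a wide peak that crosses a locus border entered with its whole signal.

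Total signal of the peaks that overlap each locus, promoter (2000 bp around start sites) or union region was summed, rank-mapped and tested with limma 3.58.1 (R 4.3.3) with a mean trend. Loci, promoters and regions were each fitted whole. The limma procedure was first tested on simulated data. The study's count test needs read counts and was not run. The labels call the libraries biological replicates. Same-numbered libraries did not all deviate together (r over 0.1) in H minus C, HC minus CC_s or HHC minus CCC. Those of HH and CC_l did, with r = 0.138 and 0.126, but the rule asked for 3 pairs, which the long arm does not have. The 3 pairs of CC_s and C did (r = 0.551, 0.300 and 0.308).

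The members and the lists (HIF pathway components, hypoxia-induced genes, angiogenic ligands and receptors, and adipocyte, endothelial, macrophage, and progenitor and mesothelial markers) were chosen with earlier results of these data known. Regions named are the one over each main start site, the strongest away from it and those past an unadjusted p of 0.01 with a difference above 1. Of each of the first 3 lists at most the 3 genes of smallest p over both durations are named, and the 3 loci most like a member share no peak with it. 1 list gene that this rule names is not reported here. Alternatives covered the flank, overlap, signal measure, scaling, filter, fit, replicate block and single libraries.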

Additional observations from a re-analysis of the deposited data

Results flagged for a closer look

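Among the member loci, the promoters and the regions named above, the WL difference differed from the obesity difference, by the contrast of both in limma, in 3 at an unadjusted p under 0.05, and none of these 3 passed the adjusted threshold. In that contrast 1 of 9 member loci passed the unadjusted threshold, against 10.2% of all loci. Of the 9 member promoters 1 passed it, against 3.19% of all promoters upward and 4.34% downward. The share over all regions was not counted. At the Angpt1 locus the change was 0.59 ± 0.25 (SE) (adjusted p = 0.432). At the Egln3 promoter it was 0.97 ± 0.43 (SE) (adjusted p = 0.634). At the Epas1 upstream region it was -1.26 ± 0.43 (SE) (adjusted p = 0.275).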

How the results depend on the processing

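Of 3560 repeats of 214 member results with a test, 3476 stayed on the same side of the adjusted threshold, 68 fell short of it and 16 newly passed it. The sign of the difference changed in 302, all of them past the threshold neither as reported nor in the repeat, and in 0 of the others. Counts of members at an unadjusted p under 0.05 were small and moved readily, and the cause was not tested. At gene loci, HC minus CC_s had 1 member and gave 0 without flank and with the maximum signal, 2 with at least 50% of the peak inside, covered length, no filter, the floor passed in every library, eBayes without trend, robust eBayes and one fit of all libraries, and 3 with apportioned signal and median centring. Both WL pairs together had 0 and gave 1 with the strongest 40000 peaks, no filter, the floor passed in every library, eBayes without trend, robust eBayes and the enrichment ratio as a covariate, 2 without flank, with 50 kb of flank, apportioned signal, at least 50% of the peak inside and covered length, and 3 with each library's share of its total signal and median centring. HH minus CC_l had 2 and gave 1 with the strongest 40000 peaks, covered length, each library's share of its total signal and eBayes without trend, and 0 with the maximum signal. Both obesity pairs gave 1 with the maximum signal, and H minus C gave 1 with the enrichment ratio as a covariate. CC_s minus C gave 1 with apportioned signal, one fit and the enrichment ratio, and CCC minus CC_l gave 1 with apportioned signal and the maximum signal.

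The median difference of the members for HC minus CC_s was -0.22 without flank, 0.17 with 50 kb of flank, 0.0895 with the maximum signal, -0.26 with each library's share of its total signal and 0.12 with the enrichment ratio. That of both WL pairs was -0.13 with the strongest 40000 peaks, -0.20 without flank and -0.34 with each library's share of its total signal. That of both obesity pairs was 0.0382 with at least 50% of the peak inside, -0.0009 with the maximum signal and -0.0038 with each library's share of its total signal. For H minus C it was 0.15 with 50 kb of flank and 0.13 with covered length, and for HHC minus CCC 0.0642 with the maximum signal and -0.39 with each library's share of its total signal. At promoters of 1000 bp on each side, 1 member passed for H minus C, for both obesity pairs and for both WL pairs. Without HC 3 and HHC 3, an alternative chosen after seeing the data like the enrichment covariate, promoter counts were 1 for HC minus CC_s, 4 for both obesity pairs and 1 for both WL pairs, and 0 member regions passed for HC minus CC_s. With an adjusted p under 0.05 and the same difference, 0 member regions passed for HC minus CC_s and 0 for HH minus CC_l.

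Leaving out 1 library at a time, locus counts ran from 3 to 4 (H minus C), 0 to 2 (HC minus CC_s), 1 to 3 (HH minus CC_l), 0 to 2 (CC_s minus C), 0 to 1 (CCC minus CC_l), 2 to 3 (both obesity pairs) and 0 to 2 (both WL pairs). Median differences ran from -0.0240 to 0.16 (H minus C), -0.16 to 0.14 (HC minus CC_s), -0.0309 to 0.14 (HH minus CC_l), -0.33 to -0.0163 (HHC minus CCC), -0.0001 to 0.25 (both obesity pairs) and -0.12 to 0.0078 (both WL pairs). Promoter counts ran from 1 to 3 (H minus C), 0 to 1 (HC minus CC_s), 0 to 2 (HH minus CC_l), 0 to 1 (HHC minus CCC), 0 to 2 (CCC minus CC_l), 0 to 2 (both obesity pairs) and 0 to 4 (both WL pairs). Region counts ran from 0 to 2 (H minus C), 0 to 1 (HC minus CC_s), 0 to 2 (HH minus CC_l) and 1 to 2 (both obesity pairs). Where a long-arm control library was left out, the lone one was taken to vary like the other groups.

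With the replicate number as a block, 0 members passed for HC minus CC_s and 1 for CC_s minus C. In the 4 diet pairs the libraries share only a number. Depth is unknown, since the lists hold no read counts, and groups of 2 or 3 limit what can be seen.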
